A study of Mus musculus with 13 samples.

Results

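Sites bound by the STAT3 antibody at 4 mouse genes, Thg1l, Lsm4, Slc39a1 and Crtc2, were followed through 12 peak lists. The lists come from CUT&RUN, in which an antibody brings a nuclease to bound DNA and the released fragments are sequenced, so that a peak marks a pile of fragments. All peaks that overlapped the RefSeq span of a member gene, or the 10000 bp on either side of it, were taken. This gave 37 of the 13513 peaks used, which merged into 9 of 11227 regions, at 4 of 21887 protein-coding genes. The genes were chosen by the fold enrichment of their peaks with IL-21 in these same lists, so their heights, and the contrast of IL-21 with IL-4 and with the knockout, are given as a description without a test.

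Every library came from naive B cells of mouse spleen that first spent 96 h in 1 µg/mL αCD40, an antibody to the costimulatory receptor CD40, with 12.5 ng/mL of IL-4. IgM+ and IgG1+ cells were then separated by sorting, and 400000 of them received αCD40 at the same dose for 1 h, together with IL-4 at 12.5 ng/mL in one arm and IL-21 at 10 ng/mL in the other. Wild-type (WT) cells gave 2 libraries for each treatment and isotype (8 in all), and STAT3 knockout (KO) cells 1 library for each (4 in all). The labels give neither the animals' age or strain nor how STAT3 was deleted, nor whether replicates came from separate animals, so a p-value here measures the spread between libraries, which may be technical. The IL-21 arm is not recorded to contain IL-4 during that hour, so the presence of IL-21 and the absence of IL-4 cannot be told apart. A peak list holds no expression level, so neither the cell type nor the deletion could be checked against a marker.

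STAT3 is a latent transcription factor. JAK kinases at the IL-21 receptor phosphorylate it, and the dimers bind palindromic DNA sites in which TTC and GAA flank a short spacer. IL-4 signals mainly through STAT6, which prefers a spacer longer by a base. The member genes belong to no common pathway. Thg1l encodes the enzyme that adds a guanine to histidine tRNA. Lsm4 encodes a subunit of the LSm rings that bind U6 snRNA in splicing and act in mRNA decay. Slc39a1 encodes ZIP1, a zinc importer of the plasma membrane, and Crtc2 encodes a coactivator of the transcription factor CREB.

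The Thg1l site (chr11:45954952-45955902, mm10) covered 2 RefSeq promoter windows of the gene, each holding the 250 bases before and 50 bases after an annotated start on the minus strand. The summits of all 8 WT peaks fell in the window of the start at 45955188. That window is printed because it holds the only TTCNNNGAA match in the promoter windows of the member genes, set in capitals. It reads, on the minus strand of GRCm38.p6, the assembly behind mm10:

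Thg1l, chr11:45955139-45955438: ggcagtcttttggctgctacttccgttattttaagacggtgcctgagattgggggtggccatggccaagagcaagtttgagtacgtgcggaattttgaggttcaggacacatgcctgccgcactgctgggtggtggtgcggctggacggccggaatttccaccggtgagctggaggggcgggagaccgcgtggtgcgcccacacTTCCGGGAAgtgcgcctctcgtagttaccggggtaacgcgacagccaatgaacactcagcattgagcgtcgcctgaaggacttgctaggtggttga

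The match spans 45955226 to 45955234. Its centre lies 42 bp before this start and 273 bp after the other annotated start, at 45955503. The window of that other start, which the peaks also reached, held no match. TTCNNNGAA was searched on both strands and stands in 8.30% of the 32851 promoter windows of the table. The form in which 4 bases part TTC and GAA stands in 6.95% of them and in no window of a member gene, and 0.679% of windows hold both forms.

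The promoter window of Slc39a1 is printed because the site of that gene runs through it, although 6 of its 7 WT summits lie beyond its end. Neither form was found in this window:

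Slc39a1, chr3:90247942-90248241, plus strand: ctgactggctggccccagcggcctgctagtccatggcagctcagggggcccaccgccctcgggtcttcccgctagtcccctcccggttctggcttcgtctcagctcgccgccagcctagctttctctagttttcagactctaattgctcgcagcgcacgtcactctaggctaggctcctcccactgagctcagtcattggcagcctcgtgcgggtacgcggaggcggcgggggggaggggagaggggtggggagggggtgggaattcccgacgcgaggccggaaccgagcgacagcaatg

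The table of promoter windows matched 2 of the 4 member genes, Thg1l and Slc39a1, and not Lsm4 and Crtc2.

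By fold enrichment, Thg1l had the highest or second highest peak of every WT IL-21 list. Its fold enrichment, the authors' own value, was taken as the fragments at the summit plus 1 over the local background plus 1. It was 117 and 62.4 in the IgM libraries with IL-21 and 60.1 and 63.3 in the IgG1 libraries. With IL-4 it was 13.5 and 10.8 in IgM and 19.2 and 8.56 in IgG1 cells. The IL-21 and IL-4 values did not overlap, and the first IgM library with IL-21 stood well above the other 3. Choice by height with IL-21 favours such a gap. The share of all regions with such a gap was not counted, so nothing particular to the gene is read from it. No KO list had a peak there, and the nearest KO peak in any of the 4 lists lay 318955 bp away.

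The whole number of fragments piled up at a summit can be solved from the fold and −log10 p of its peak, and this was done for all 37 member peaks. At Thg1l the summit held 377, 260, 216 and 222 fragments with IL-21 (IgM 1 and 2, then IgG1 1 and 2) over a background of 2.23 to 3.18. With IL-4 it held 46, 39, 67 and 24 fragments in the same order of libraries, over 1.92 to 2.70. Without the added 1, pileup over background came to 169, 81.8, 82.7 and 88.0 with IL-21 and 18.6, 14.4, 26.4 and 12.5 with IL-4, so the fold understates the height over so low a background. The backgrounds of the treatments thus overlapped, whereas the pileups did not. The smallest pileup called anywhere in the 4 KO lists was 10 to 11 fragments, so a weaker signal at Thg1l in KO cells would not have been listed.

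Lsm4 followed Thg1l closely. The site (chr8:70673105-70674353, mm10) crossed the lower end of the gene span, and its fold was 103 and 66.7 in IgM and 59.6 and 56.7 in IgG1 cells with IL-21. With IL-4 the fold was 16.0 and 11.03 in IgM and 18.0 and 10.1 in IgG1 cells. The treatments again did not overlap, with the same limit as at Thg1l. As at Thg1l, the first IgM library was the highest with IL-21 and the first IgG1 library the highest with IL-4. The pileup at Lsm4 was 266 to 449 fragments with IL-21 and 43 to 80 with IL-4. No KO list had a peak in the site. The KO IgM library with IL-21 had a small peak 6375 bp away (fold 4.02, 12 fragments), and in the other KO lists the nearest peak lay 121818 bp away or farther.

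**Figure D1:**
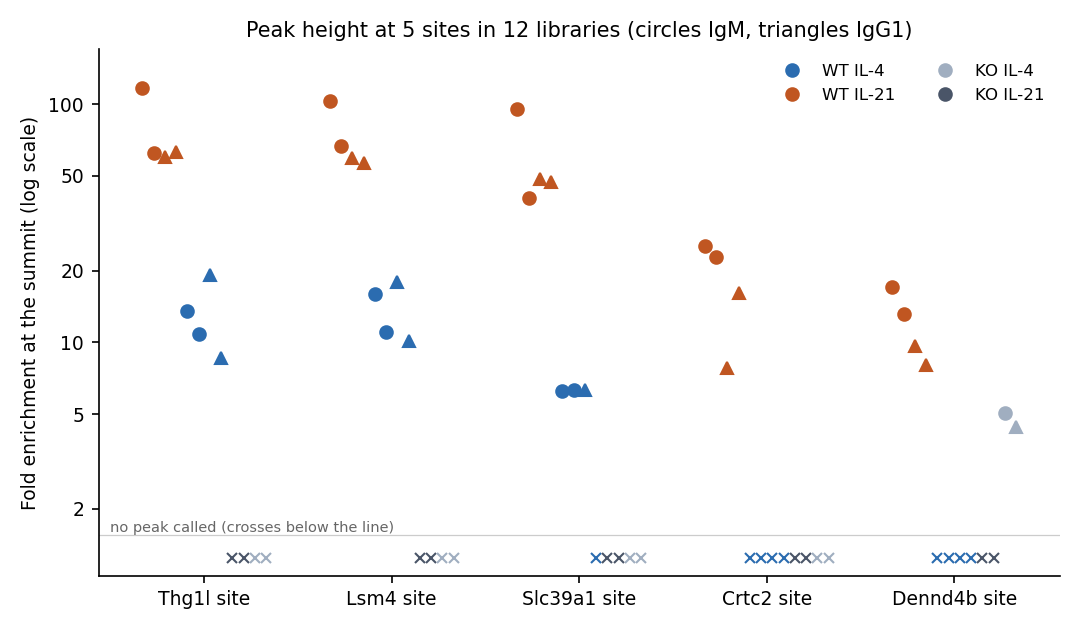
Fold enrichment at the summit (log scale) at 5 sites in the 12 libraries, circles for IgM and triangles for IgG1 cells, with crosses where no peak was called. IL-21 values lie above IL-4 values at Thg1l, Lsm4 and Slc39a1, Crtc2 has peaks with IL-21 only, and the Dennd4b site alone has KO peaks (5.07 and 4.44).

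The Thg1l and Lsm4 sites shared a pattern that no other region had. Of the 7461 regions found in WT cells, 2 (0.0268%) had a peak in all 8 WT libraries and in no KO library, and these were the Thg1l and Lsm4 sites. That pattern is part of what made them stand out and is no test of them. Without the second IgG1 library with IL-4, the count of regions in all remaining WT libraries and no KO library was 7. The 5 that joined were Slc39a1, Lmna, which encodes lamins A and C, Jak3, a kinase that signals from common gamma chain receptors, Batf, an AP-1 family factor, and Otud5, a deubiquitinase, since that library alone lacked them. The 8 regions in exactly 7 WT libraries and no KO library also included Ubb, a polyubiquitin gene, Crebrf and Jund.

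Closeness to Thg1l was measured as the mean absolute difference of log2 fold from it, over the WT libraries where both had a peak. Lsm4 differed by 0.13 on average over 8 libraries, Slc39a1 by 0.73 over 7 and Lmna by 1.29 over 7. Because no region outside the member windows had peaks in all 8 WT libraries, the last comparison used regions in 7, a choice made after the data were seen. The measure reads mostly height, by which the members were chosen, so their places in this order were largely set by that choice. The values of a library also share its depth.

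Within a library the depth is shared, so ratios between sites can be set side by side. The fold at Thg1l was 1.14 and 0.94 times that at Lsm4 in IgM and 1.01 and 1.12 times in IgG1 cells with IL-21. With IL-4 the ratio was 0.85 and 0.98 in IgM and 1.07 and 0.85 in IgG1 cells. The ranges overlapped, and Thg1l and Lsm4 were of similar fold under both treatments. Slc39a1 reached 0.65 to 0.81 of the Thg1l fold with IL-21 (mean 0.75 ± 0.077, SD, n = 4) and 0.33 to 0.59 of it with IL-4 (mean 0.46 ± 0.13, SD, n = 3), without overlap. Against Lsm4 it reached 0.61 to 0.93 with IL-21 and 0.35 to 0.57 with IL-4. Without the added 1, Thg1l stood at 1.02 to 1.27 times Lsm4 with IL-21 and 0.93 to 1.16 times with IL-4. Slc39a1 then stood at 0.65 to 0.87 of Thg1l with IL-21 and 0.33 to 0.60 with IL-4, and at 0.67 to 1.10 of Lsm4 with IL-21 and 0.38 to 0.65 with IL-4. The treatments still did not overlap in either ratio, but Slc39a1 lay above Lsm4 in 1 IL-21 library. The IL-4 ratios rest on 3 libraries with 19 or 20 fragments at Slc39a1, and the second IgG1 library had no Slc39a1 peak. The genes were chosen by fold with IL-21, and the share of other pairs of regions with such a gap was not counted. Nothing particular to Slc39a1 is read from it.

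**Figure D2:**
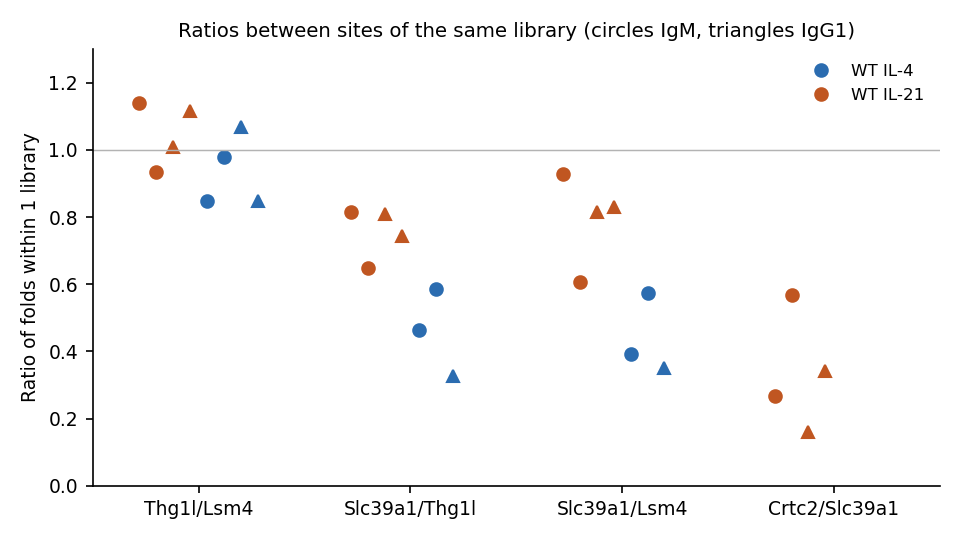
Ratio of the folds of a pair of sites in the same WT library, circles for IgM and triangles for IgG1 cells. Thg1l to Lsm4 stays between 0.85 and 1.14 under both treatments. Slc39a1 to Thg1l lies at 0.65 to 0.81 with IL-21 and 0.33 to 0.59 in the 3 IL-4 libraries with a Slc39a1 peak.

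Slc39a1 held the third highest fold of every WT IL-21 list. The site (chr3:90247713-90248977, mm10) had a fold of 95.4 and 40.5 in IgM and 48.6 and 47.1 in IgG1 cells with IL-21, from pileups of 148 to 269 fragments. With IL-4 the fold was 6.28 and 6.33 in IgM cells and 6.30 in the first IgG1 library, from 20, 20 and 19 fragments, and the second IgG1 library had no peak. The IL-4 peaks were thus small and close to each other in height, with the smallest pileup called in those lists at 10 to 11 fragments. No KO list had a peak in the site, and the nearest lay 16547 bp away.

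Crtc2 lay next to Slc39a1 and had a site of its own across its lower end (chr3:90253563-90254637, mm10). The windows of the 2 genes overlap, so the Slc39a1 site also counts as a peak near Crtc2. The Crtc2 fold was 25.4 and 22.9 in IgM and 7.81 and 16.1 in IgG1 cells with IL-21, from 75, 87, 25 and 53 fragments. No IL-4 list and no KO list had a peak in it. Both IgM values lay above both IgG1 values. Peaks with IL-21 in 4 of 4 WT libraries, and with IL-4 in none, were found at 98 of 7461 regions (1.31%), and the reverse at 0 (0%). Without the first IgG1 library with IL-21 the first of these counts was 215. This contrast is part of what chose the gene, and nothing is read from it here.

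By height, Crtc2 does not belong with the other members. Ordered by mean fold over the WT IL-21 libraries, Thg1l, Lsm4 and Slc39a1 took the first 3 places among the 167 regions found in all 4 of them (2.24% of WT regions), with 57.9 at Slc39a1. Lmna followed at 28.4 ± 10.8 (SD, n = 4). Next came Icam1, an adhesion molecule (23.5 ± 9.05), Arf6, a small GTPase of membrane traffic (22.0 ± 8.91), Gen1, a Holliday junction resolvase (21 ± 6.89), and Rabggta, which encodes part of the enzyme that prenylates Rab proteins (20.7 ± 8.49, each SD, n = 4). Crtc2 was the 15th at 18.1 ± 7.90 (SD, n = 4), where the median of the 167 regions was 8.81. Its rank by fold within the lists was 17 and 5 in IgM and 56 and 19 in IgG1 cells.

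**Figure D3:**
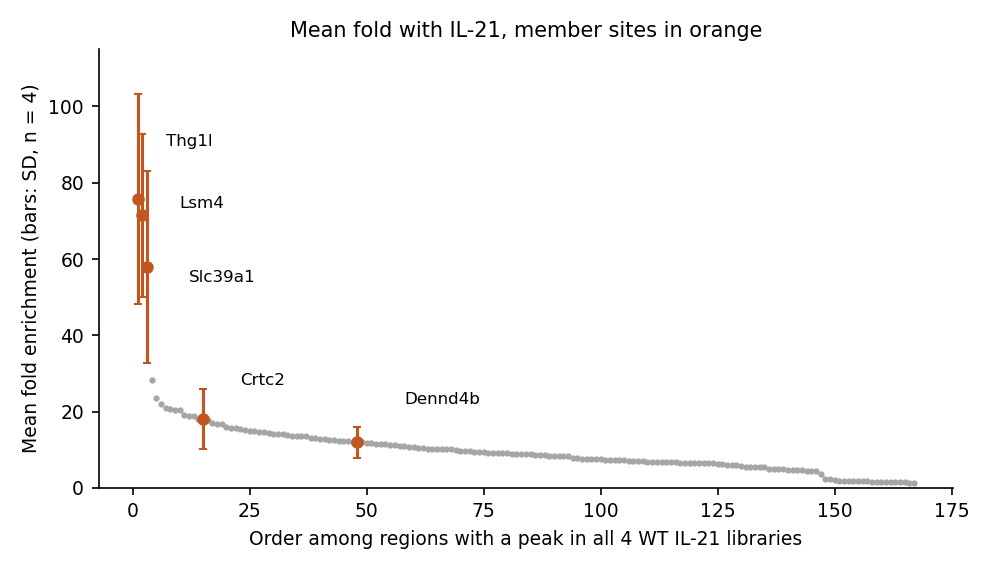
Mean fold enrichment over the 4 WT IL-21 libraries of the 167 regions found in all of them, in falling order, with SD bars for the sites named. Thg1l, Lsm4 and Slc39a1 stand apart at 57.9 or more, the next region is at 28.4, and Crtc2 and Dennd4b (11.98) lie within the run of other regions.

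Rank depended on the measure. By fold, Thg1l, Lsm4 and Slc39a1 filled the top 3 places of each WT IL-21 list. By −log10 p, Thg1l ranked 6 to 7, Lsm4 5 to 6, Slc39a1 8 to 10 and Crtc2 19 to 80. The 4 or 5 peaks outside the member windows that ranked above Thg1l by −log10 p all lay in regions found in all 12 libraries, KO included, and their fold was at most 2.12. With IL-4, Thg1l ranked 2 and 2 by fold in IgM and 1 and 10 in IgG1 cells, and Lsm4 1 and 1 in IgM and 2 and 8 in IgG1 cells. Slc39a1 ranked 52, 19 and 16 in the 3 IL-4 lists that held it.

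A further site in the Crtc2 window lay in Dennd4b, a member of the DENN family of Rab exchange factors (chr3:90265135-90266421, mm10). It had a fold of 17.1 and 13.2 in IgM and 9.63 and 8.02 in IgG1 cells with IL-21, and no peak in the 4 WT IL-4 lists. Unlike the member sites it had a peak in both KO libraries with IL-4 (fold 5.07 in IgM, 4.44 in IgG1), from 18 and 20 fragments. The KO libraries with IL-21 had none. The Dennd4b site is thus not among the 125 regions (1.68% of WT regions) found in all 4 WT IL-21 libraries and in no KO library, whereas the Thg1l, Lsm4, Slc39a1 and Crtc2 sites are. Without the first IgG1 library with IL-21 that count was 242.

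**Figure D4:**
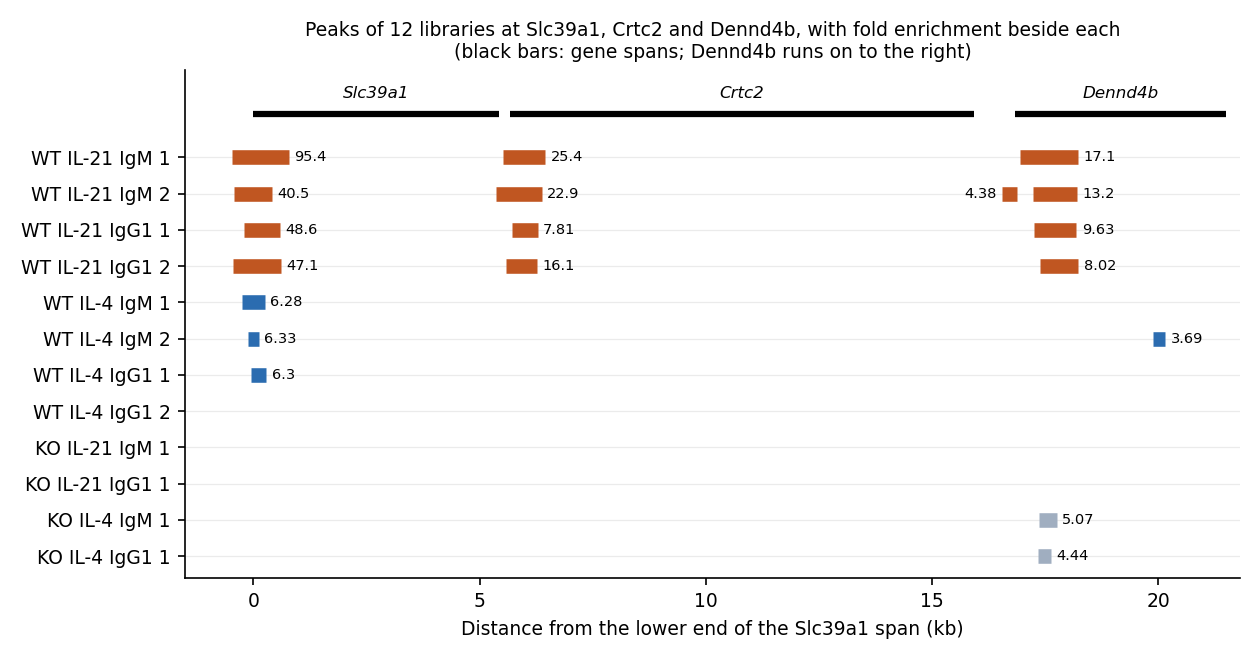
Called peaks of the 12 libraries along Slc39a1, Crtc2 and Dennd4b, by distance in kb from the lower end of the Slc39a1 span, with the fold beside each bar. With IL-21 the same 3 sites recur in all 4 WT libraries, with IL-4 only the Slc39a1 site recurs (6.28 to 6.33), and the KO peaks lie at Dennd4b.

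The remaining 4 regions of the windows had 1 peak each, in 1 library each. They lay at Dennd4b in the second IgM IL-21 library (fold 4.38) and the second IgM IL-4 library (3.69), within Lsm4 in the first IgM IL-21 library (3.08), and between Pgpep1 and Lsm4 in the KO IgM IL-21 library (4.02). In all, WT IL-21 lists gave 22 of the 37 peaks, WT IL-4 lists 12, KO IL-21 lists 1 and KO IL-4 lists 2.

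Peaks at the member sites were wider than the median peak of their list with IL-21. With IL-21 the Thg1l peak spanned 938 and 599 bp in IgM and 533 and 447 bp in IgG1 cells, and, with IL-4, 260 and 254 bp in IgM and 316 and 250 bp in IgG1 cells. The Lsm4 peak spanned 1073 and 1200 bp in IgM and 987 and 1027 bp in IgG1 cells with IL-21, and 417 to 471 bp with IL-4. Lsm4 was wider than Thg1l in 8 of 8 libraries. The folds were similar, but in each library Lsm4 held more fragments at the summit, over a higher background. Its pileup was 266 to 449 with IL-21 and 43 to 80 with IL-4, against 216 to 377 and 24 to 67 at Thg1l. Whether the width goes with the pileup was not tested. Relative to the median peak of the same list (242 to 313 bp in WT lists), Lsm4 was 3.43 to 4.33 times as wide with IL-21 and 1.6 to 1.95 times with IL-4. The Thg1l peak was 1.6 to 3.00 times the median with IL-21 and 0.98 to 1.22 times with IL-4, and so of ordinary width in that arm. The Slc39a1 peak was 789 to 1265 bp wide with IL-21 and 247 to 501 bp with IL-4, and the Crtc2 peak 562 to 998 bp with IL-21. The Dennd4b peak, outside the member genes, was 843 to 1285 bp wide with IL-21, or 3.01 to 4.11 times the list median. Great width was thus not particular to the members.

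Summits were tightest at Crtc2. Its 4 summits lay 210, 211, 212 and 216 bp inside the lower end of the gene span, over peaks of 562 bp or more. At Lsm4 the summits lay 256 to 302 bp inside the span with IL-21 and 229 to 374 bp with IL-4. At Slc39a1, whose annotated start is at 90248192, they lay at 90248316 to 90248369 with IL-21, all beyond the printed window, and at 90248421, 90248193 and 90248358 with IL-4. The summits of Dennd4b were spread more widely, from 720 to 1011 bp inside that gene with IL-21 and at 534 and 856 bp in the KO libraries.

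Summit position and width were then compared between IgM and IgG1 cells, a contrast that the choice of genes did not use. The test permuted isotype within treatment, exactly and two-sided, at the sites with a peak in all 8 WT libraries (4 tests, 36 arrangements, smallest possible p 0.0556). At Thg1l the summit lay at 45955368 and 45955369 with IL-21 and 45955388 and 45955325 with IL-4 in IgM cells, and at 45955328, 45955325, 45955325 and 45955308 in IgG1 cells. The IgG1 summits were lower by 41 bp on average (difference −41, exact permutation p = 0.111, adjusted p = 0.444), and the groups overlapped at the second IgM library with IL-4. The Thg1l peak was 386.5 ± 127 bp wide in IgG1 and 512.8 ± 326 bp in IgM cells (SD, n = 4 each, difference −126, exact permutation p = 0.222, adjusted p = 0.444). At Lsm4 the summits differed by 13.3 bp (IgG1 minus IgM, exact permutation p = 0.944, adjusted p = 0.944) and the widths by −52.8 bp (exact permutation p = 0.389, adjusted p = 0.519). None of the 4 passed, and the design could not reach 0.05. The direction at the Lsm4 summit turned without the first IgG1 library with IL-4 (−23 bp).

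**Figure D5:**
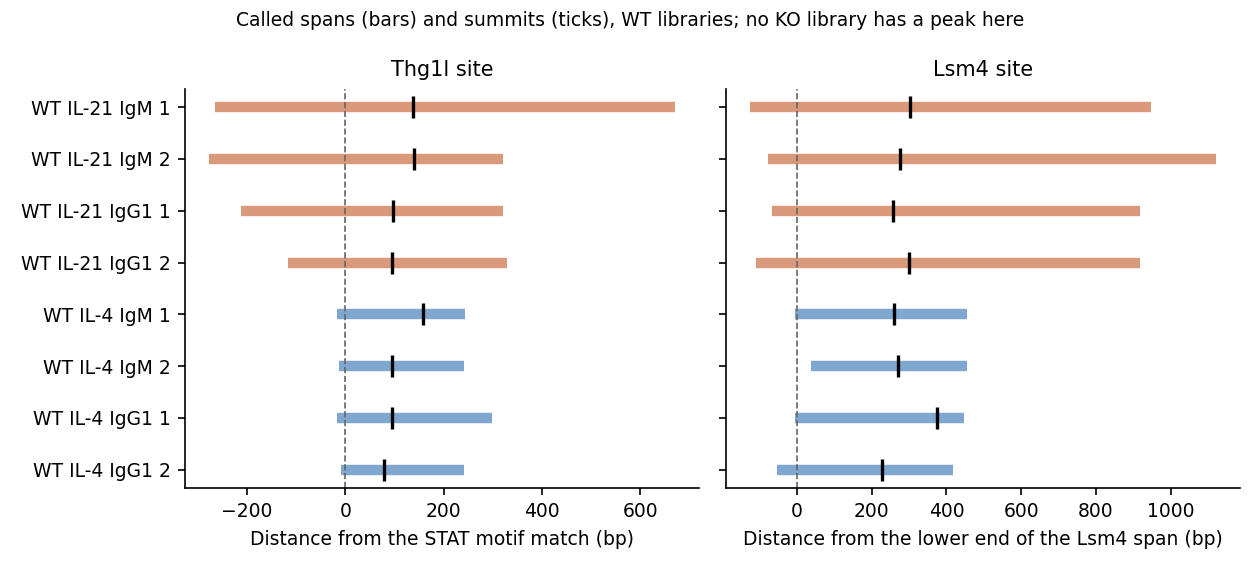
Called spans (bars) and summits (ticks) of the 8 WT libraries at Thg1l, by distance from the STAT motif match, and at Lsm4, by distance from the lower end of the gene span, in bp. Spans are wider with IL-21 at both sites, and at Thg1l the match lies near the lower edge of every IL-4 span and 78 to 158 bp from the summits.

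The printed match lay inside the Thg1l peak of all 8 WT libraries but not at the summit. Its centre was 138 and 139 bp from the IgM and 98 and 95 bp from the IgG1 summits with IL-21. With IL-4 the distance was 158 and 95 bp in IgM and 95 and 78 bp in IgG1 cells. The lower edge of the IL-4 peaks lay 4 to 12 bp below the match, and that of the IL-21 peaks 113 to 274 bp below it. The position of the summit apart from the match was common. Among the 26 regions that recurred with IL-21 in WT, were absent from KO lists and met a promoter window with a match, the highest summit lay 56 to 499 bp from it, with a median of 138.5 bp.

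The letters of the Thg1l match recur at other strong promoter sites. Of the 125 regions that recurred with IL-21 in WT and were absent from KO lists, 52 (41.6%) overlapped a promoter window, Thg1l and Slc39a1 among them, against 7.90% of the 10180 regions found in 1 library. Recurring regions merge peaks of several libraries and are often longer. Length alone makes a region more likely to meet a window, and it was not adjusted for. TTCNNNGAA stood in a window of 26 of the 52 (50.0%), against 7.34% of the 804 promoter regions found in 1 library. The exact letters TTCCGGGAA, read on either strand (TTCCCGGAA on the other), are a special case of that motif. They stood in a window of 14 of the 52 (26.9%), Thg1l itself among them, and of 10 of the 804 (1.24%). A region can meet several windows. Counted per window, TTCNNNGAA stood in 30 of the 77 windows met by the recurring regions (39.0%), 65 of the 1003 met by regions of 1 library (6.48%) and 8.30% of all. The exact letters stood in 16 of the 77 (20.8%), 11 of the 1003 (1.10%) and 0.35% of all. These shares are a description, with no test.

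The 8 promoter regions with a match and the highest mean fold with IL-21 are shown with 10 bases on each side, so that the Thg1l site can be read beside them. Each is written on the strand of its gene, with the match in capitals:

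Thg1l, chr11:45955216-45955244, minus strand: gcgcccacacTTCCGGGAAgtgcgcctct

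Icam1, chr9:21015888-21015916, plus strand: ggcgcgaggtTTCCCGGAAagtggccccg

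Gen1, chr12:11265803-11265831, minus strand: agcgagccatTTCCCGGAAggggcgggac

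Rabggta, chr14:55721949-55721977, minus strand: tgctggcagcTTCCGGGAAacacctgggg

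Ncf1, chr5:134229695-134229723, minus strand: agctcaaaaaTTCTCAGAAagtgaaagac

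Akt2, chr7:27591382-27591410, plus strand: tcactgggccTTCGGGGAAagcctacttg

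Ubb, chr11:62551709-62551737, plus strand: gcaacgggccTTCCGGGAAgagtgggcct

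Bcl6, chr16:23988952-23988980, minus strand: agcaaattagTTCTCAGAAttccagaggc

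The sites of 5 of the 8 genes carry TTCCGGGAA or its reverse complement: Thg1l, Icam1, Gen1, Rabggta and Ubb. Thg1l is the source of these letters. The 8 come from the 26 recurring regions with a match, of which 14 carry them, so nothing is read from the share among the 8. Ncf1, which encodes an NADPH oxidase component of phagocytes, and Bcl6, the repressor that directs germinal centre B cells, both carry TTCTCAGAA. Akt2, a kinase of insulin and growth factor signalling, carries TTCGGGGAA. Their mean folds with IL-21 ran from 15.7 at Bcl6 to 23.5 at Icam1, against 75.7 at Thg1l. Thg1l was chosen for its height, so the lower peaks at Icam1, Gen1, Rabggta and Ubb, which share its letters, were set by that choice. Nothing on sequence and height is read from them.

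Nearby genes had few regions of their own. Within 50000 bp of the Thg1l site lay Lsm11, a histone pre-mRNA processing factor (10372 bp away), Sox30 (23701 bp) and Clint1 (44743 bp), and no list had a region assigned to any of them. Around Lsm4 lay Pgpep1 (13087 bp), Jund, an AP-1 subunit (24206 bp), Iqcn, Gdf15 and Gm3336. Jund had a region of its own (chr8:70698301-70700693, mm10) in all 4 WT IL-21 and 3 of the 4 WT IL-4 libraries and in no KO library, with a mean fold of 6.67 with IL-21 and 4.96 with IL-4. A further Jund region (chr8:70695217-70695987) was found in 3 WT IL-21 libraries, with a mean fold of 6.50. Pgpep1 had 2 regions, neither of them in a WT IL-21 library, and Iqcn, Gdf15 and Gm3336 had none.

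Around Slc39a1 and Crtc2, Creb3l4, which encodes a membrane-bound relative of CREB (3745 bp from the Slc39a1 site), Jtb, Rab13 and Rps27 had no region. Gatad2b had 1 region, found in 1 WT IL-21 library (fold 8.21), and Nup210l had 1, found in no WT IL-21 library. The regions of this locus that recurred in all 4 WT IL-21 libraries thus fell at Slc39a1, Crtc2 and Dennd4b.

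Other genes of the members' families were then counted. A region in all 4 WT IL-21 libraries and no KO library was found at 116 of 21887 protein-coding genes (0.53%). Apart from the member itself, it was found at 0 of 19 genes of LSm and Sm proteins, 0 of 23 zinc transporter genes and 0 of 38 genes of tRNA modifying enzymes. Among 10 genes of CREB and its coactivators it was found at 1, Crem, a CREB relative that both activates and represses (mean fold 9.44 with IL-21). Regions in 1 or 2 WT IL-21 libraries only, with a mean fold of 3.86 to 5.93, were found near 2 further genes of the LSm and Sm list (Snrpd2, Snrpe), 4 of the CREB list (Crtc3, Ep300, Sik1, Sik2), 3 of the zinc list (Slc39a10, Slc30a5, Slc30a6) and 4 of the tRNA list (Trmt10a, Pus1, Adat3, Dus2). Of all protein-coding genes, 2955 of 21887 (13.5%) had a region in any WT IL-21 library.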

How the data were processed

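STAT3 CUT&RUN was analysed in 12 libraries of mouse B cells from the peak list of each. The series has 13 samples, of which the one labelled input was not used here. Per the submitters' processing notes the build was mm10 and the tools included MACS2 2.2.7.1, Bowtie2 2.4.1, deepTools 3.5.1 and Trimmomatic 0.39, with no roles stated. What served as control, and how the yeast spike-in was used, is not given in the sources used here. In the lists the authors deposited, each peak has a fold, a −log10 p and −log10 q, and an integer score, which was not used. The fold was taken as the ratio of pileup plus 1 to local background plus 1, and the background was derived from it. With this form, whole pileups fitted the −log10 p of the member peaks within 0.001. Libraries were made with 14 cycles of PCR, per the labels' protocols, and read totals are not given, so depth is known only through the pileups. The fold of a peak is relative to its own library, so folds are set side by side across lists but not tested.

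Peaks outside the autosomes, X and Y (395 of 13908) were left out. Peaks were merged into regions at 1 bp of overlap, and where a library had several in a region the one with the highest fold was used. A region was assigned to the nearest RefSeq protein-coding gene within 50000 bp. Whole pileups were solved from fold and −log10 p within 0.001, and the solver was tested on simulated data. Isotype was compared by exact permutation with Benjamini-Hochberg adjustment at 0.05. Promoter windows (250 bases before to 50 after a start) are RefSeq's, GRCm38.p6. Python 3.11.15, pandas 2.3.3, numpy 2.4.6 and scipy 1.17.1 were used.

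The members and the gene lists were chosen with earlier results of these data known. The text names the members, genes within 50000 bp of their sites, the 5 regions next in mean fold with IL-21, the regions most like Thg1l, and the counted genes of the family lists. No region outside the member windows met the rule for likeness (all 8 WT libraries, no KO library), so regions in 7 were used. The 8 promoter sites printed, the search for TTCCGGGAA and for TTCCNGGAA, and the Dennd4b site were chosen after values were seen.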

Additional observations from a re-analysis of the deposited data

Results flagged for a closer look

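In 4 of 21 sets of 4 libraries, 1 library stood far from the other 3. The rule flags about 1 in 20 sets of like libraries by chance. These sets share libraries and mix IgM with IgG1 cells, so the count is not read against that rate. The fold at Thg1l was 117.1 in the first IgM library with IL-21 and 60.1 to 63.3 in the other WT libraries with IL-21. The fold at Slc39a1 was 95.4 in the same library and 40.5 to 48.6 in the others. That library also had the longest WT list (2034 peaks), and its part in these values was not tested. Its summit at Dennd4b lay at 90266031, where the others lay at 90265740 to 90265781. The Thg1l peak was 316 bp wide in the first IgG1 library with IL-4 and 250 to 260 bp wide in the other WT libraries with IL-4.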

How the results depend on the processing

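Under the alternatives, 123 recomputed values kept their direction and stayed within the spread between libraries (counts within 1.5 times), 12 moved farther and 1 reversed. Many of the 123 could not have moved. A block changes only the p-value, and leaving out an IL-4 library cannot alter the count with IL-21 and without KO. Leaving out 1 of 4 libraries also shifts a mean by less than its SD. The 123 are thus no measure of robustness. Pileup over background without the added 1, chosen after seeing the data, gave means of 105.4 with IL-21 and 18.0 with IL-4 at Thg1l and 84.9 and 8.64 at Slc39a1, against folds of 75.7, 13.0, 57.9 and 6.30. Leaving out 1 library at a time, the mean fold with IL-21 ranged from 61.9 to 80.9 at Thg1l, 61.0 to 76.4 at Lsm4, 45.4 to 63.7 at Slc39a1 and 15.6 to 21.5 at Crtc2. The count of regions in all WT libraries and no KO library ranged from 2 to 7, with 7 without the second IgG1 library with IL-4. The count with IL-21 and without IL-4 ranged from 99 to 215 and that with IL-21 and without KO from 125 to 242, both highest without the first IgG1 library with IL-21. The isotype difference ranged from −56.8 to −25.3 bp for the Thg1l summit, −211 to −41.5 bp for its width, −23 to 49.5 bp for the Lsm4 summit and −84.5 to −21 bp for its width. The Lsm4 summit turned to −23 bp without the first IgG1 library with IL-4, and the cause was not tested. Ranks by −log10 p had a median of 7 at Thg1l, 5.5 at Lsm4, 8.5 at Slc39a1 and 38.5 at Crtc2, against 1, 2, 3 and 18 by fold.

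Deviations of same-numbered IgM and IgG1 libraries correlated across regions at −0.21 with IL-21 (167 regions) and −0.21 with IL-4 (22 regions). With 2 libraries per treatment and isotype, these values cannot show whether same-numbered libraries share an animal or a day. Whether replicate numbers pair the libraries is thus not known. With the replicate block (16 arrangements) the Thg1l summit difference was −41 bp, a value the block cannot change (exact permutation p = 0.125, adjusted p = 0.5). The block gave 0 calls of 4, as did the test without it (0 at an unadjusted p under 0.05 in both). A crossed pairing (16 arrangements), added after seeing the data, gave 0 calls of 4. With so few arrangements none of these tests could reach 0.05, so the counts of calls were fixed beforehand and are no check. In promoter windows, the form with 4 bases between TTC and GAA stood in 6.95% and the stricter TTCCNGGAA, added after seeing the data, in 1.15%.

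A site without a peak may hold fragments under the smallest pileup called, 10 to 12 per list. There is 1 KO library per treatment and isotype, so the KO values have no replicate check.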
